A study of Mus musculus with 6 samples.

Results

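The 10 genes described here are used to judge what cultured smooth muscle cells have become: Lgals3, Ly6a, Ly6c1, Vcam1, Icam1, Cd44, Krt8, Krt18, Krt19 and Msln. They were taken by symbol from the deposited table of protein-coding genes, and all 10 were found among its 22482 genes. The cells were mouse aortic vascular smooth muscle cells (VSMCs), which make up the arterial media, of the C57BL/6 strain, grown in medium with 10% fetal bovine serum. By the labels they carried an adenovirus for 48 h before total RNA was depleted of ribosomal RNA and sequenced. The labels give 3 libraries to a Myocd knockdown group, titled ADV, and 3 to a group with a negative control virus, titled Ctrl. In the design text the second group is named wildtype instead, so whether it received virus is not certain. Neither the viral construct nor the source of the replicates (separate cultures, animals or 1 pool) is given, so the p-values cover only library-to-library spread, which could be technical.

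The targeted gene went against the labels. Myocd, the coactivator of serum response factor, averaged 135.8 ± 8.49 FPKM in the libraries labelled knockdown and 0.0535 ± 0.0644 FPKM in those labelled control (SD, n = 3 each, as for every value with ± here). FPKM counts fragments per unit of transcript length, adjusted for sequencing depth. Groups are therefore named by their labels, and every direction is that of the libraries labelled knockdown, where Myocd was higher. Fragments recovered from the deposited count columns summed to between 7528170 and 9793781 per library. Of a list of 13 contractile smooth muscle genes, Cnn1, Myh11 and Lmod1 were under 1 FPKM in both groups. The rest included Acta2 at 340.2 ± 7.16 against 67.2 ± 4.16 FPKM and Des at 124.0 ± 3.19 against 108.0 ± 0.853 FPKM. Tagln was at 7.52 ± 1.77 against 0.637 ± 0.887 FPKM and Actg2 at 15.5 ± 1.14 against 0.464 ± 0.0703 FPKM. The means of Tagln and Actg2 were thus under 1 FPKM in the libraries labelled control only. In a fit over both groups, edgeR called 254 of 11563 genes between the replicate 3 libraries and the rest (limma called 1, with 1588 at an unadjusted p under 0.05); replicates 1 and 2 were not compared with the rest in this way. Between libraries labelled knockdown, chi-square per gene of the fragments was 4.74 for replicates 1 and 2, 6.01 for 1 and 3, and 3.15 for 2 and 3. Between those labelled control it was 2.44, 3.35 and 3.78 in the same order. Among the libraries labelled knockdown, replicates 1 and 2 thus differed more than replicates 2 and 3.

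Aortic smooth muscle cells can lose contractile proteins and take on other programmes, in culture and in diseased vessels. In mouse lineage tracing such modulated cells have been recognised by galectin-3 (Lgals3), the surface antigen Sca-1 (Ly6a) and the adhesion molecule Vcam1. Cd44 is the main cell-surface receptor for hyaluronan, and Icam1 and Vcam1 hold leukocytes through their integrins. Mesothelial cells, the epithelium-like lining of body cavities, carry mesothelin (Msln) and simple-epithelial keratins. Keratin filaments are built from pairs of an acidic chain, such as Krt18 or Krt19, and a basic chain, such as Krt8.

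The genes fell into a high set and a low set with a wide gap between them. In the libraries labelled control Ly6a, Lgals3, Ly6c1, Krt19, Cd44, Msln and Vcam1 ran in that order, with means of 1083, 676, 281.0, 255.7, 169.0, 75.9 and 44.4 FPKM. These 7 genes ranked between place 27 (Ly6a) and place 1813 (Vcam1) of 22482. Krt18, Krt8 and Icam1 averaged 0.489, 0.219 and 0.200 FPKM there and ranked between 11601 and 12314. The order of the 7 high genes was the same in the libraries labelled knockdown. Neighbours in that order did not overlap in either group, except Ly6c1 and Krt19 in the libraries labelled control. Among the 3 low genes neighbours overlapped in both groups.

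**Figure D1:**
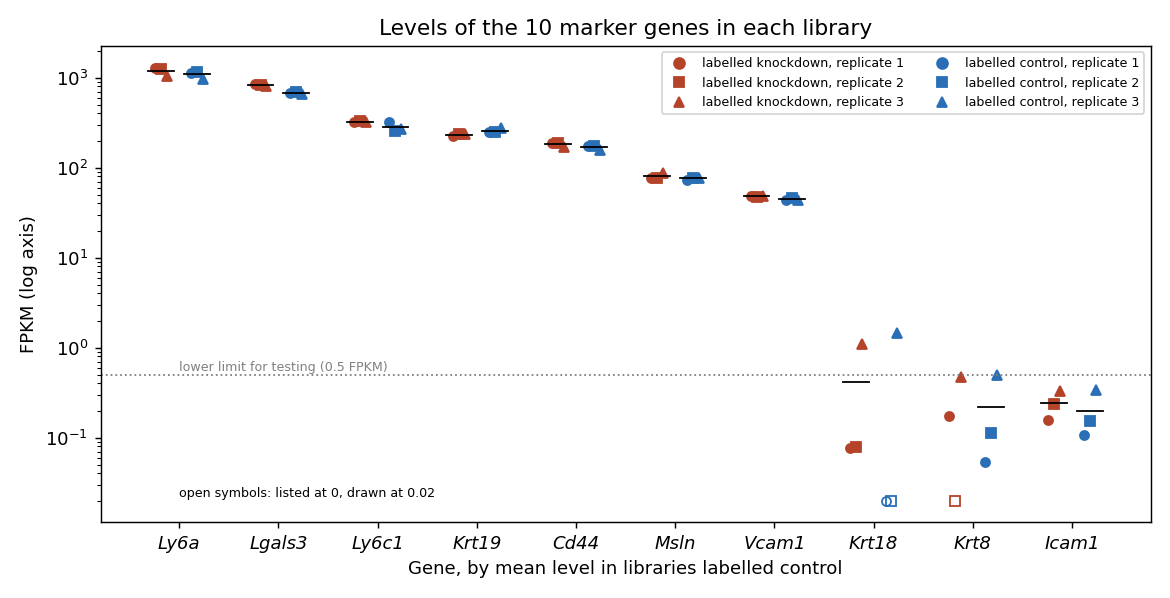
FPKM on a log axis (vertical) for each of the 10 genes (horizontal), with red symbols for the 3 libraries labelled knockdown and blue symbols for the 3 labelled control, shaped by replicate number. Black lines are means, left out where a library was listed at 0; 7 genes stand at 43.5 FPKM or more in every library, while Krt18, Krt8 and Icam1 stay at or under 1.47 FPKM and are highest in replicate 3.

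A gene was tested when at least 3 of the 6 libraries reached 0.5 FPKM. All 7 high genes passed and the 3 low genes did not. The test was limma on log2(FPKM + 0.1), with p-values adjusted over all 11612 tested genes and a threshold of 0.05. Of the 7 tested genes 1, Lgals3, was called, upward. Over all tested genes 3.44% were called in either direction, 1.83% upward and 1.61% downward. A count test, edgeR on the recovered fragments, called 2 of the 7 (Lgals3 and Cd44), both upward, where 9.95% of all its genes were called, 5.45% upward and 4.5% downward. At an unadjusted p under 0.05 were 2603 of the 11612 genes in limma and 3139 of 11563 in edgeR. These values over all genes are the background for the counts given for gene lists below. Lgals3, Vcam1 and Krt19 did not overlap between the groups in FPKM, as did not 28.9% of all tested genes. An exact two-sided permutation test of any single gene can go no lower than p = 0.1 with 3 libraries against 3.

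**Figure D2:**
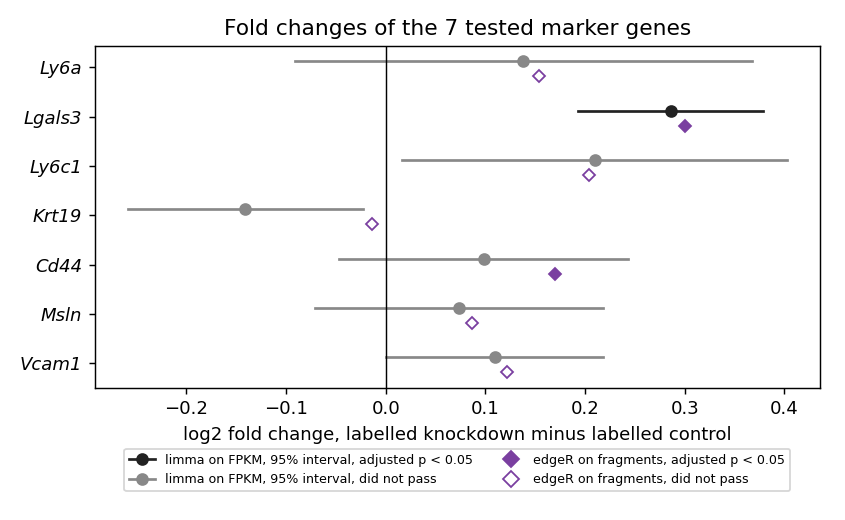
Log2 fold change (horizontal, libraries labelled knockdown minus those labelled control) for the 7 tested genes (vertical). Circles with lines are limma estimates from FPKM with 95% intervals and diamonds are edgeR estimates from fragments; Lgals3 is the only gene past the threshold by both, and Krt19 is the only one below 0.

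Lgals3 (ENSMUSG00000050335, chromosome 14, plus strand, 47367751 to 47386160, mm10) encodes galectin-3, a galactoside-binding lectin found in the cytoplasm, in the nucleus and outside the cell. Its levels were 840.2, 827 and 804 FPKM in the libraries labelled knockdown, against 679, 698 and 651 FPKM in those labelled control. Every library labelled knockdown was above every library labelled control. Its means were 824 ± 18.3 and 676 ± 23.6 FPKM (SD, n = 3 each), a 1.22-fold difference. The log2 fold change was 0.29 (SE 0.04, 95% interval 0.19 to 0.38, limma adjusted p = 0.0169). The fragments behind it were 7404, 7154 and 6019 against 6472, 6302 and 6032, and edgeR gave a log2 fold change of 0.30 (adjusted p = 0.000117). The limma call was lost when 1 library was left out for knockdown 1 (adjusted p = 0.0693), knockdown 2 (0.0745), control 1 (0.0708) or control 2 (0.0539). The log2 fold change stayed between 0.26 and 0.31 over all 6 such fits. With both replicate 3 libraries left out it held (log2 fold change 0.28, adjusted p = 0.0447).

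Lgals3 is also a macrophage gene, so macrophage markers were read beside it. Of 16 macrophage markers present, 12 were under 1 FPKM in both groups. C1qc was at 0 in all 6 libraries, Csf1r rounded to 0 fragments in each, and Ptprc, the pan-leukocyte antigen, had at most 1 fragment in a library, where a count of 0 allows up to 3. Others of these 12 had fragments in most libraries. Cd74 had 14, 11 and 4 in the libraries labelled knockdown against 12, 13 and 9 in those labelled control. Lyz2 had 9, 0 and 10 against 10, 3 and 9, and Mrc1 had 7, 1 and 6 against 2, 6 and 9. The summed level of the list was 37.8 to 40.9 FPKM in the libraries labelled knockdown and 36.4 to 41.0 FPKM in those labelled control, mostly from Cd14 (17.2 ± 1.86 against 20.8 ± 1.08 FPKM) and Mpeg1 (14.8 ± 0.172 against 12.3 ± 0.602 FPKM). Cd68 was at 4.37 ± 1.05 against 3.15 ± 1.24 FPKM and the leukocyte integrin chain Itgb2 at 0.966 ± 0.156 against 1.28 ± 0.354 FPKM. Of the 6 tested macrophage markers 0 passed in limma (2 at an unadjusted p under 0.05), while edgeR called Mpeg1 (log2 fold change 0.27). In bulk RNA fewer cells of a type and less RNA per cell cannot be told apart.

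Other galectins were read as well. Of 8 tested members of the galectin list 2 rose and 6 did not pass, with a median log2 fold change of -0.00 against -0.01 over all tested genes. The second to rise was Lgals3bp, a secreted glycoprotein that binds galectin-3, at 456.7 ± 14.3 against 391.7 ± 9.85 FPKM (log2 fold change 0.22, limma adjusted p = 0.0346). EdgeR did not call it (log2 fold change 0.12, adjusted p = 0.132). Lgals1, the most abundant galectin, was at 1508 ± 142.0 against 1540.0 ± 111.0 FPKM. Lgals9 was at 79.1 ± 2.84 against 96.4 ± 7.15 FPKM, which limma did not call (adjusted p = 0.0556) and edgeR called lower (log2 fold change -0.27, adjusted p = 0.0152).

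The 3 genes named next had values nearest to Lgals3 across the 6 libraries, by the root mean square difference of log2 values centred on each gene's own mean. They were Elf1, an ETS transcription factor (0.0147), Syt13, a synaptotagmin (0.0199), and Vcl, the focal adhesion protein vinculin (0.0255). Vcl was at 118.6 ± 2.38 against 96.5 ± 1.74 FPKM, Syt13 at 58.4 ± 1.47 against 48.8 ± 2.49 FPKM and Elf1 at 21.1 ± 0.466 against 17.5 ± 0.470 FPKM.

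Promoter sequence from RefSeq (GRCm38.p6, the build also called mm10) was matched for 6 of the 10 genes: Lgals3, Ly6c1, Icam1, Cd44, Krt8 and Krt18. The windows shown hold the 250 bases before the annotated start, on the gene's own strand and 5′ to 3′. For Lgals3 the RefSeq start lies inside the span given above from the deposited table, which begins further upstream, so its window does not precede the first base of that span. Lgals3 is shown as the gene called by both tests, and Krt18 and Krt8 as partner keratins that both had their highest counts in replicate 3 of each group. Capitals mark the NF-kB consensus.
Lgals3, chr14:47373610-47373859, plus strand: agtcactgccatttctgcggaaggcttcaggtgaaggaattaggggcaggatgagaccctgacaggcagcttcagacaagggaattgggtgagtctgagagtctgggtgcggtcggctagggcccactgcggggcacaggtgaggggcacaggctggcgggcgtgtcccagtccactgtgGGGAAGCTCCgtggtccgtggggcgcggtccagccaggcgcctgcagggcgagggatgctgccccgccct
Krt18, chr15:102027966-102028215, plus strand: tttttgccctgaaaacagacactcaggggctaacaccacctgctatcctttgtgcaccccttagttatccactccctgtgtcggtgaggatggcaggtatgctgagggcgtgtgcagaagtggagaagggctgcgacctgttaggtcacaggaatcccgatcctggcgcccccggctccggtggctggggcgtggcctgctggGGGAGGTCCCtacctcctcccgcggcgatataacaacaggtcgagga
Krt8, chr15:102004343-102004592, minus strand: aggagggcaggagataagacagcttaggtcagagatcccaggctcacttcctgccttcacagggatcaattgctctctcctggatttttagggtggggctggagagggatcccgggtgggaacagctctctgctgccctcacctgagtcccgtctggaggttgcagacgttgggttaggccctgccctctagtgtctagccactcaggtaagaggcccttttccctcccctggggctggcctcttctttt
Each window was searched on both strands for the NF-kB consensus, the CArG box bound by serum response factor, TATAAA and the GC box (GGGCGG). The NF-kB consensus began 70 bases before the start of Lgals3 and 47 bases before that of Krt18. None was found in the other windows, nor a CArG box in any window of the 6 genes. TATAAA was found only in the window before the upstream one of the 2 annotated Ly6c1 starts. The GC box, not marked in capitals, began 7 bases before the start of Lgals3 and 17 bases before that of Icam1. Over all 32851 windows of the same length 7.25% held the NF-kB consensus, 1.47% a CArG box, 12.4% TATAAA and 32.7% the GC box. CpG dinucleotides numbered 13 in the window of Lgals3, 12 in that of Krt18 and 3 in that of Krt8, against a median of 6 over all windows. A match is a run of letters and not a shown site of binding. Only exact matches were counted, so the lack of a match does not show that a site is absent.

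Ly6a (ENSMUSG00000075602, chromosome 15, minus strand, 74994878 to 74997901) encodes Sca-1, a surface protein anchored by a lipid and found on stem-like and mesenchymal cells of mouse vessels. It was the highest of the 10 genes, with 1292, 1251 and 1038 FPKM in the libraries labelled knockdown, against 1113, 1163 and 973 FPKM in those labelled control. The groups overlapped, and replicate 3 was the lowest library of each. The means were 1194 ± 136.2 and 1083 ± 98.3 FPKM, and the log2 fold change of 0.14 (SE 0.10, 95% interval -0.09 to 0.37) did not pass (limma adjusted p = 0.442). EdgeR did not call it either (log2 fold change 0.15, adjusted p = 0.131). With both replicate 3 libraries left out limma gave 0.16 (adjusted p = 0.108) and edgeR, as an alternative added after seeing the data, called it at 0.17 (adjusted p = 0.000563). With the group accounted for, edgeR put Ly6a lower in replicate 3 than in replicates 1 and 2 (log2 difference -0.20, adjusted p = 0.00203), while limma's difference of -0.26 did not pass (adjusted p = 0.12).

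Ly6c1 (ENSMUSG00000079018, chromosome 15, minus strand, 75045017 to 75048837) encodes Ly-6C, a related surface antigen best known from monocytes and endothelium. Its levels were 319.3, 330.8 and 320.2 FPKM in the libraries labelled knockdown, against 319.9, 252.4 and 270.8 FPKM in those labelled control. Control 1 lay inside the range of the libraries labelled knockdown, and the other controls lay below it. The log2 fold change was 0.21 (SE 0.08, 95% interval 0.02 to 0.40) and did not pass (limma adjusted p = 0.194), nor did the edgeR value of 0.20 (adjusted p = 0.0822). DESeq2 on the same fragments called it (log2 fold change 0.20, adjusted p = 0.04). Without control 1 limma gave 0.31 (adjusted p = 0.0649). The near-identical neighbour Ly6c2 was at 19.7 ± 3.07 against 14.6 ± 1.65 FPKM, and fragments may have been shared out between the 2 genes.

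Across the Ly6 family, small lipid-anchored surface proteins with a common fold, 0 of 10 tested genes passed in limma (3 at an unadjusted p under 0.05), with a median log2 fold change of 0.21. EdgeR called 1 of 7, Ly6e, a widely expressed and interferon-induced member, at 743.4 ± 32.0 against 647.5 ± 23.5 FPKM (edgeR log2 fold change 0.21, adjusted p = 0.00588; limma adjusted p = 0.0634). Of the 25 family members 8 were at 0 in all 6 libraries, among them Ly6g, the neutrophil antigen. Ly6a to Ly6c1 ratios of FPKM ran from 3.24 to 4.05 in the libraries labelled knockdown and from 3.48 to 4.61 in those labelled control. Interferon receptors and signal transducers act upstream of several Ly6 genes. Of 16 tested, 2 rose by limma, the transcription factor Irf7 (log2 fold change 0.54, adjusted p = 0.0141) and the receptor chain Ifnar2 (0.32, adjusted p = 0.0492). The median of that list was -0.01.

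Fibroblast and adventitial markers were read beside Ly6a and Ly6c1, which that list contains. Without these 2 genes the other 12 summed to 96.6 to 103.0 FPKM in the libraries labelled knockdown and 102.0 to 109.7 FPKM in those labelled control. Col1a1, a fibrillar collagen chain, was at 39.8 ± 4.01 against 41.6 ± 5.63 FPKM, and Cd34 at 34.0 ± 3.16 against 40.6 ± 2.15 FPKM. Dcn, the matrix proteoglycan decorin, was at 5.61 ± 1.39 against 3.29 ± 0.949 FPKM without overlap and did not pass (log2 fold change 0.76, limma adjusted p = 0.126; edgeR 0.77, adjusted p = 0.0536). Of the 8 tested genes in the list 0 passed in limma (3 at an unadjusted p under 0.05), and edgeR called 1, Cd34, lower (log2 fold change -0.24, adjusted p = 0.0357). Lum, Pi16, Thy1, Col14a1, Gli1, Clec3b and Dpp4 were under 1 FPKM in both groups. Among pericyte markers, 0 of 4 tested genes passed by limma (1, Rgs5, at an unadjusted p under 0.05). EdgeR called 0 of 3 and did not test Rgs5. Rgs5 was low, at 0.798 ± 0.311 against 0.170 ± 0.0300 FPKM without overlap (log2 fold change 1.68, limma adjusted p = 0.0734), from 36 against 23 fragments. Notch3 (22.1 ± 0.880 against 23.0 ± 0.814 FPKM), Pdgfrb (11.2 ± 1.15 against 9.48 ± 0.719 FPKM) and Cspg4 (5.53 ± 0.491 against 6.08 ± 0.270 FPKM) were the highest.

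Vcam1 (ENSMUSG00000027962, chromosome 3, minus strand, 116110020 to 116129688), which binds integrin alpha-4 beta-1 on leukocytes, measured 47.8, 47.1 and 48.9 FPKM in the libraries labelled knockdown. It was at 43.5, 46.0 and 43.7 FPKM in those labelled control. Every library labelled knockdown was above every control, by a small margin. The means were 47.9 ± 0.892 and 44.4 ± 1.39 FPKM, and the log2 fold change of 0.11 (SE 0.05, 95% interval 0.00 to 0.22) did not pass (limma adjusted p = 0.22). The edgeR value was 0.12 (adjusted p = 0.0917), and none of the 21 alternative settings called it.

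Icam1 (ENSMUSG00000037405, chromosome 9, plus strand, 21015960 to 21039036), the ligand of the leukocyte beta-2 integrins, was barely detected. It had 4, 6 and 7 fragments in the libraries labelled knockdown and 3, 4 and 9 in those labelled control, or 0.156, 0.239 and 0.327 against 0.108, 0.153 and 0.338 FPKM. The groups overlapped and the gene was too low to test. In each library Vcam1 exceeded it by 129.5-fold to 401.7-fold in FPKM. Of its leukocyte receptor chains, Itgam had at most 1 fragment in a library. Itgal had 3, 7 and 0 fragments in the libraries labelled knockdown against 3, 1 and 2 in those labelled control. Itgb2 had 25, 31 and 18 against 26, 46 and 37.

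The adhesion system around Vcam1 and Icam1 was read as 3 lists. Over all 11612 genes tested by limma, 2603 were at an unadjusted p under 0.05. Of 14 tested immunoglobulin-family adhesion molecules 0 passed in limma (5 at an unadjusted p under 0.05), and edgeR called Pvrl2, a nectin of cell junctions (25.9 ± 0.707 against 22.0 ± 0.844 FPKM, edgeR adjusted p = 0.0269, limma adjusted p = 0.0697). The list's median log2 fold change was 0.06. Of the 8 integrin chains that receive Vcam1 or Icam1, 3 could be tested and 0 passed by limma (1 at an unadjusted p under 0.05) or by edgeR (2 at an unadjusted p under 0.05). Itgb7 was at 25.3 ± 1.03 against 22.8 ± 0.826 FPKM (limma adjusted p = 0.194). Among 24 tested genes of the NF-kB pathway, which induces Vcam1 and Icam1 in inflamed vessels, 0 passed in limma (4 at an unadjusted p under 0.05) and the median was -0.03. EdgeR called Tnfaip3 higher and Rela and Traf2 lower there; Traf2, an adaptor of TNF receptors, was at 7.80 ± 0.401 against 9.82 ± 0.551 FPKM (limma adjusted p = 0.0839).

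Endothelial cells also carry Vcam1, Icam1 and Ly6c1. Of 13 endothelial markers 11 were under 1 FPKM in both groups, with Emcn at 0 in all libraries and Pecam1 at 0.262 ± 0.143 against 0.307 ± 0.131 FPKM. The list summed to 8.40 to 11.1 FPKM in the libraries labelled knockdown and 8.54 to 9.50 FPKM in those labelled control, most of it Flt1 (7.60 ± 0.574 against 7.96 ± 0.366 FPKM). Vwf was at 1.24 ± 0.330 against 0.185 ± 0.107 FPKM and rose in limma (log2 fold change 2.28, adjusted p = 0.0346) but not in edgeR, whose log2 fold change was 1.16 (adjusted p = 0.0869). Of 8 T and B cell markers all were under 1 FPKM and 5 were at 0 in all 6 libraries. Of 5 Schwann cell markers only Mbp passed 1 FPKM (2.32 ± 0.559 against 1.65 ± 0.193 FPKM).

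Cd44 (ENSMUSG00000005087, chromosome 2, minus strand, 102811141 to 102901665) measured 188.1, 186.5 and 168.2 FPKM in the libraries labelled knockdown, against 174.1, 174.9 and 157.9 FPKM in those labelled control. In both groups replicate 3 was the lowest, and the groups overlapped because knockdown 3 lay below controls 1 and 2. The log2 fold change was 0.10 (SE 0.06, 95% interval -0.05 to 0.24, limma adjusted p = 0.386). As CPM, recovered fragments scaled to a common library total, the values were 776.6, 762.8 and 698.8 against 698.3, 693.8 and 625.4. These did not overlap, by a margin of less than 1 on that scale, as was so for 31.6% of tested genes. EdgeR called it by a narrow margin (log2 fold change 0.17, adjusted p = 0.0498), and with both replicate 3 libraries left out called it again (0.16, adjusted p = 0.000634). Limma then gave 0.10 (adjusted p = 0.176). EdgeR with another scaling of the libraries (RLE) lost the call (adjusted p = 0.0511).

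Of 11 tested genes for hyaluronan synthesis, binding and breakdown 1 rose by limma and 10 did not pass, with a median of 0.13. EdgeR called 3 of 11 higher: Cd44, Vcan and Tmem2. The gene that rose by limma was Vcan, the large hyaluronan-binding proteoglycan versican (117.5 ± 2.50 against 101.4 ± 2.29 FPKM, log2 fold change 0.21, limma adjusted p = 0.0383, edgeR adjusted p = 0.000106). Tmem2 was at 15.6 ± 0.607 against 14.0 ± 0.240 FPKM (edgeR log2 fold change 0.16, adjusted p = 0.0430, limma adjusted p = 0.217). The synthases Has1 (7.28 ± 1.59 against 6.38 ± 0.128 FPKM) and Has2 (3.59 ± 0.404 against 3.35 ± 0.352 FPKM) did not pass. Among 8 linkers of Cd44 to actin and proteases that cleave it, Mmp14 rose (86.0 ± 1.83 against 73.9 ± 1.28 FPKM, log2 fold change 0.22, limma adjusted p = 0.0368) and 7 did not pass. The linker ezrin (Ezr) was at 113.9 ± 2.54 against 112.7 ± 1.37 FPKM. The linker moesin (Msn) was at 169.6 ± 2.42 against 155.2 ± 1.82 FPKM, which edgeR called higher (log2 fold change 0.15, adjusted p = 0.00871) and limma did not (adjusted p = 0.0903). That list's median was 0.02.

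Krt19 (ENSMUSG00000020911, chromosome 11, minus strand, 100140810 to 100148665) was the only keratin of the set at a high level. It reached 224.9, 234.1 and 236.1 FPKM in the libraries labelled knockdown, against 246.6, 247.5 and 273.1 FPKM in those labelled control. Every library labelled knockdown was below every control in FPKM. The log2 fold change of -0.14 (SE 0.05, 95% interval -0.26 to -0.02) did not pass (limma adjusted p = 0.161). In CPM the values were 291.1, 293.6 and 291.3 against 293.2, 295.2 and 308.4, the groups overlapped, and edgeR gave -0.01 (adjusted p = 0.832). The FPKM and fragment columns thus differed on Krt19, and the cause was not tested.

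Krt8 and Krt18 are neighbours on chromosome 15, at 101996711 to 102004342 (ENSMUSG00000049382, minus strand) and 102028216 to 102032026 (ENSMUSG00000023043, plus strand). Krt18, an acidic keratin, had 1, 1 and 12 fragments in the libraries labelled knockdown and 0, 0 and 20 in those labelled control. Krt8, the basic keratin that Krt18 and Krt19 pair with, had 3, 0 and 7 fragments against 1, 2 and 9. Both genes were highest in replicate 3 of each group, and the groups overlapped. Over both replicate 3 libraries Krt18 had 32 fragments (95% exact Poisson interval 21.9 to 45.2) and over the other 4 libraries 2 (0.242 to 7.22). For Krt8 the sums were 16 (9.15 to 26.0) and 6 (upper bound 13.1). These intervals cover counting error only. Krt19 exceeded Krt8 in FPKM by 494.7-fold to 4651-fold in the 5 libraries where Krt8 was above 0.

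Msln (ENSMUSG00000063011, chromosome 17, minus strand, 25748614 to 25754327) encodes mesothelin, a lipid-anchored surface protein whose known partner is the mucin Muc16. It measured 76.9, 76.2 and 86.9 FPKM in the libraries labelled knockdown, against 73.1, 77.2 and 77.5 FPKM in those labelled control. The groups overlapped, with knockdown 3 the highest library. The log2 fold change was 0.07 (SE 0.06, 95% interval -0.07 to 0.22, limma adjusted p = 0.522). The edgeR value was 0.09 (adjusted p = 0.365).

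Msln and Krt19 were the only mesothelial markers with a mean above 1 FPKM, so the name mesothelial-like rests on those 2 genes in these cells. Of 15 such markers the other 13 had means under 1 FPKM in both groups, and Muc16 was at 0 in all 6 libraries. The transcription factor Wt1 had 7, 5 and 12 fragments in the libraries labelled knockdown and 7, 5 and 10 in those labelled control. Upk3b, a uroplakin of mesothelium, had 2, 1 and 11 against 0, 0 and 5. Bnc1 had 0, 0 and 5 against 0, 0 and 4, and Krt7 had 0, 0 and 5 against 0, 0 and 5. Rspo1 had 0, 9 and 0 against 0, 0 and 0, and Cdh1 had 0, 5 and 0 against 0, 2 and 7. Among the libraries labelled knockdown these last genes were thus highest in replicate 2. Without the 4 genes described here (Msln, Krt8, Krt18 and Krt19) the 11 other markers summed to 9, 21 and 38 fragments in the libraries labelled knockdown and to 8, 8 and 42 in those labelled control. The replicate 3 libraries were thus the highest of each group for this sum and for Krt8 and Krt18, while Krt19 and Msln were high in all 6 libraries.

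**Figure D3:**
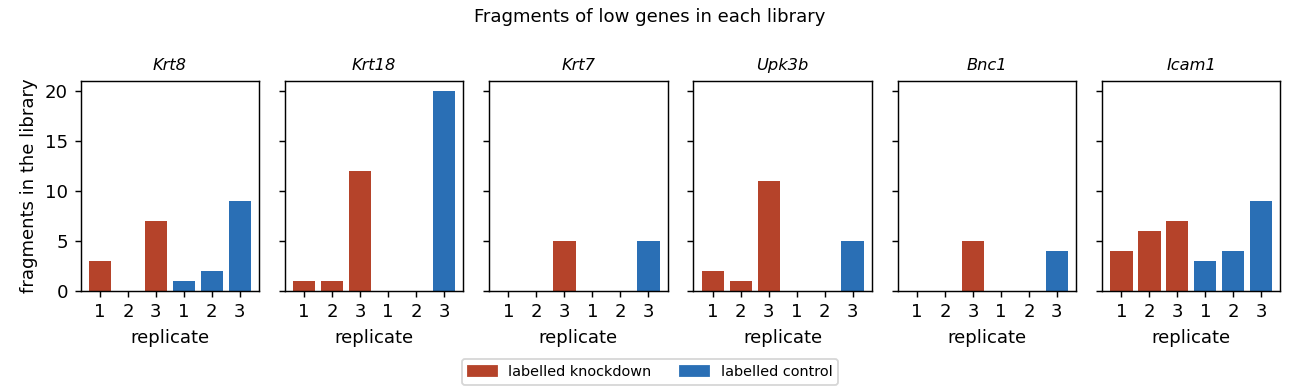
Fragments per library (vertical, not scaled for depth) for Krt8, Krt18, Krt7, Upk3b, Bnc1 and Icam1, with red bars for the 3 libraries labelled knockdown and blue bars for the 3 labelled control, by replicate number (horizontal). Replicate 3 is the highest bar of each group for all 6 genes, up to 20 fragments for Krt18. For Icam1 the excess is small, with 16 fragments over both replicate 3 libraries and 17 over replicates 1 and 2. Not every low marker has this order, and Rspo1 and Cdh1, which do not, are not drawn.

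Keratins join cells through desmosomes. Of 11 tested keratin and desmosome genes 1 fell and 10 did not pass, with a median of -0.02. The gene that fell was Plec, the linker plectin that ties several filament types together (163.6 ± 2.22 against 185.2 ± 4.62 FPKM, log2 fold change -0.18, limma adjusted p = 0.0492). Of 14 epithelial markers all were under 1 FPKM in both groups, and Epcam, Krt5 and Cldn7 were at 0 in all libraries. Among 6 tested other intermediate filament genes Des, the muscle filament protein desmin, rose (log2 fold change 0.20, limma adjusted p = 0.0411) and 5 did not pass, with a median of -0.13. Vim, the mesenchymal filament protein vimentin, was the most abundant of them at 2420 ± 63.2 against 2672 ± 33.0 FPKM (limma adjusted p = 0.0763; edgeR called it lower, log2 fold change -0.12).

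Set in a list of 14 modulated smooth muscle markers, the genes described here were 4 of the 11 that could be tested (Lgals3, Ly6a, Vcam1 and Cd44). In that list 2 rose, Lgals3 and the matrix protein gene Tnc (8.16 ± 0.463 against 5.02 ± 0.376 FPKM, log2 fold change 0.69, limma adjusted p = 0.0186), and 9 did not pass. Its median log2 fold change was 0.10. The other 10 markers, Vim and Spp1 (osteopontin) foremost, summed to 4261 to 4453 FPKM in the libraries labelled knockdown and 4669 to 4790 FPKM in those labelled control. Of these 10, Tnfrsf11b, Lum and Ibsp were under 1 FPKM in both groups, and Ibsp was at 0 in all 6 libraries. Spp1 was at 1249 ± 32.9 against 1414 ± 65.7 FPKM (limma adjusted p = 0.0783), and edgeR called it lower (log2 fold change -0.16). Over the whole list edgeR called 4 of 11 genes higher (Lgals3, Tnc, Cd44 and Fn1) and 2 lower (Spp1 and Vim). Fn1 averaged 355.5 against 329.5 FPKM without overlap (edgeR log2 fold change 0.12, adjusted p = 0.0157, limma adjusted p = 0.171). Of 11 tested contractile markers 7 were higher by limma, where 1.83% of all tested genes were. The tested contractile markers had a median log2 fold change of 0.74, and the list summed to 717 to 743 FPKM against 371 to 414 FPKM.

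**Figure D4:**
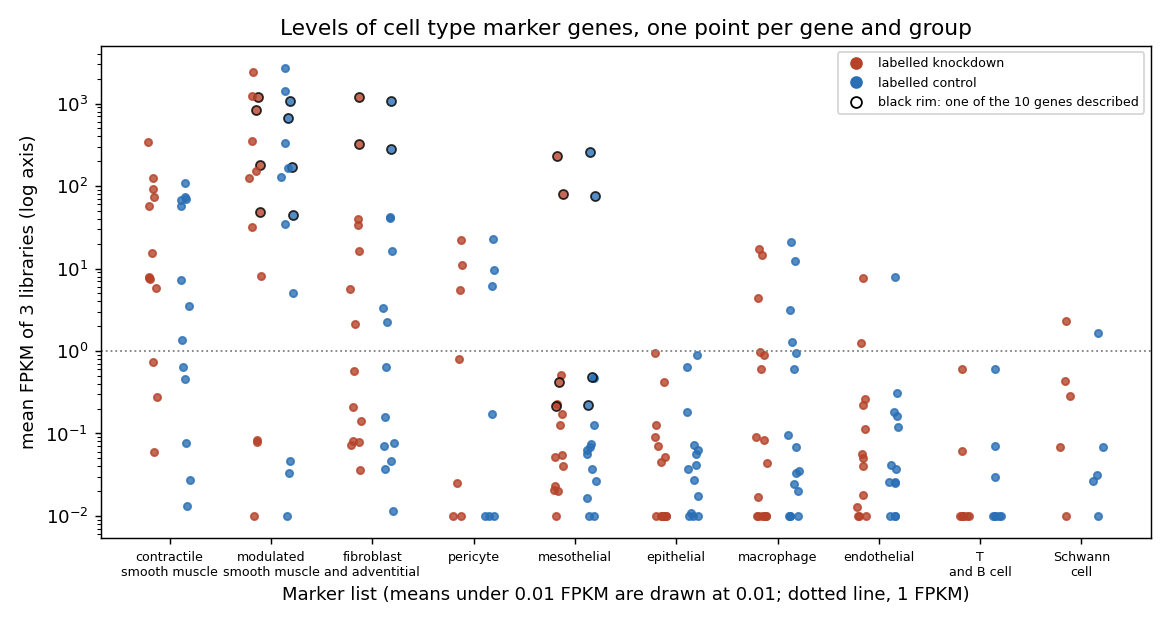
Mean FPKM of 3 libraries (vertical, log axis) of each marker gene in 10 lists (horizontal), with the libraries labelled knockdown in red and those labelled control in blue; black rims mark the genes described here. Modulated smooth muscle markers reach 2672 FPKM, while Tnfrsf11b, Lum and Ibsp of that list lie under 1 FPKM. In the mesothelial list only Krt19 and Msln lie above 1 FPKM.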

How the data were processed

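Sequencing fragments of rRNA-depleted RNA were mapped and quantified with HISAT2 2.0.4, cutadapt, Cufflinks and Cuffdiff 2.2.1, per the submitters' processing notes, which name mm10 and mm9; which role each had, and the annotation, is not stated there. Starts in the tables equalled RefSeq starts on GRCm38 for 6275 genes once 1 was added, so coordinates are given on mm10. The deposited FPKM values and the deposited estimated counts, scaled per library by the authors' software, cover 22565 rows, summed to 22482 symbols. Dividing the estimated counts by each library's step recovered whole fragments (within 0.01 for 89.4% to 90.4% of values), which were rounded. Per-gene tests used limma 3.58.1 (R 4.3.3) with a trend on log2(FPKM + 0.1), for genes at 0.5 FPKM or more in at least 3 of 6 libraries, with Benjamini-Hochberg adjustment over all tested genes. The added constant makes fold changes of low genes too small. Alternatives were edgeR 4.0.16 (quasi-likelihood, TMM or RLE), DESeq2 1.42.0, other filters and pseudocounts, a replicate block and leaving out libraries. The lncRNA table, also in FPKM as deposited, was tested from 0.1 FPKM. Named from each pathway list were the genes limma called, or the one of smallest p where none was called; from each marker list, up to 4 of the highest genes at 1 FPKM or more; and the 3 genes most like a called gene. Other names were chosen after their values were seen. The 10 genes and all lists were chosen with earlier results of these data known. Depth limits Icam1, Krt8 and Krt18 to a few fragments per library. One result of the interferon list is not reported here.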

Additional observations from a re-analysis of the deposited data

How the results depend on the processing

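Limma called 400 genes (213 higher, 187 lower); median centring gave 266 higher and 150 lower. The count of called genes was 144 without the trend, 1150 with edgeR (TMM), 1153 with edgeR (RLE), 719 with DESeq2 and 76 with both replicate 3 libraries left out. It was 44 to 178 with 1 library left out. EdgeR without both replicate 3 libraries, added after seeing the data, called 1508. Of the 10 genes limma called 1; the count was 0 without the trend, 2 with edgeR (TMM), 3 with DESeq2, 3 with edgeR without both replicate 3 libraries, and 0 to 1 with 1 library left out. Lgals3 kept its direction in all 21 alternatives (log2 0.24 to 0.31) and its call in 16; without the trend its adjusted p was 0.0774. Krt19 was below 0 in 20 of 21 and at 0.01 in edgeR without both replicate 3 libraries, never called. DESeq2 gave Icam1, Krt8 and Krt18 no adjusted p. Of 4955 lncRNA transcripts 211 were called, 62 with a filter at 0.5 FPKM and 258 with a pseudocount of 0.01. Deviations of same-numbered libraries correlated at r = 0.04, -0.00 and 0.0999 for pairs 1, 2 and 3, and pair 3 was the highest of all 9 pairs of libraries; since not every r was over 0.1, the numbers were not taken as pairs; with a replicate block limma called 243 genes and 1 of the 10, edgeR 1715 genes and 3 of the 10 (Lgals3, Cd44 and Ly6a), and the lncRNA count was 1. The cause of these differences was not tested.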

Other observations

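Some genes of other lists had their few fragments in the replicate 3 libraries of both groups, as Krt18 did; they were chosen after their values were seen. Col14a1, a fibril-associated collagen, had 0, 0 and 30 fragments in the libraries labelled knockdown and 0, 0 and 34 in those labelled control. Dsp, the desmosomal plaque protein desmoplakin, had 1, 0 and 18 against 2, 0 and 9. Thy1 had 0, 0 and 6 against 0, 0 and 4, and Lum had 0, 0 and 4 against 0, 0 and 3. The part of these fragments in the results was not tested.

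Among lncRNAs, 4 transcripts were paired with the genes described here, 3 with Icam1 and 1 with Ly6a, and none reached 0.1 FPKM in 3 libraries, so none was tested. The transcript overlapping Ly6a exons on the same strand, of 269 bases, was at 5.49 FPKM in control 1 and under 0.01 FPKM in the other 5 libraries.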
